A study of Bos taurus with 6 samples.

Results

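The miR-30 family was followed in liver small RNA libraries of grass-fed and grain-fed Angus steers. Its members were taken by name from the list of mature miRNAs counted in every library, and 7 of 1030 listed miRNAs belong to it, namely bta-miR-30a-5p, bta-miR-30b-5p, bta-miR-30b-3p, bta-miR-30c, bta-miR-30d, bta-miR-30e-5p and bta-miR-30f. The list holds 0 other names that begin with bta-miR-30 and a letter. All 7 members passed the filter on low counts, which left 456 miRNAs for testing, although bta-miR-30b-3p passed it only through its grass-fed counts. Each diet group had 3 Wye Angus steers with 1 liver library per animal, and values of single libraries are given below in the order of replicates 1, 2 and 3. The grass-fed steers received mainly alfalfa, hay or pasture after weaning and were 21 months old, and the grain-fed steers received mainly corn silage, shelled corn and soybean with minerals and were 14 months old. Both groups were sampled at market weight, so diet and age cannot be told apart here.

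A miRNA is a short RNA that guides the silencing complex to partly complementary sites, mostly in the untranslated ends of messenger RNAs. The seed near its 5′ end does most of the recognition, and the 5p members of the miR-30 family are known for a common seed. Each miRNA is cut from a hairpin whose arms give a 5p and a 3p product, of which one usually accumulates. Members of the family are known as regulators of lipid handling and differentiation. miR-30c is known to repress MTTP, the transfer protein with which the liver loads fat onto lipoproteins. miR-30a is known to repress beclin 1, a starter of autophagy, and miR-30a and miR-30d are known to repress RUNX2 during fat cell formation.

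The family comes from 6 hairpins in cattle, and each member was listed under a single precursor. In the RefSeq annotation of the ARS-UCD2.0 assembly, MIR30C and MIR30E lie within 10000 bases of each other and both overlap NFYC, the gene of a subunit of nuclear transcription factor Y. MIR30B and MIR30D also lie within 10000 bases of each other, with no gene overlapping them. MIR30A overlaps LOC132346186, which is listed as protein-coding. It has no other miRNA gene within 10000 bases, and its nearest one is MIR30F. The 5p members are known to be alike in sequence, but their sequences were not compared here. How reads that fit more than one member were divided among them is not given in the sources used here, so values of single members are uncertain to that degree.

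Depth differed with diet in these libraries. The grass-fed libraries held 3824592 to 6133960 miRNA counts and the grain-fed libraries 464875 to 892929, and the median totals differed 8.0-fold. Depth therefore cannot be told apart from diet either. bta-miR-122, the main miRNA of hepatocytes, made up 29.2% ± 2.74 of the counts in the grass-fed group and 18.3% ± 3.37 in the grain-fed group (SD, n = 3). Levels are given below as CPM, the read count set against a library size that TMM factors correct for the share of dominant miRNAs. Differences between diets come from the quasi-likelihood test of edgeR, with a miRNA called at a false discovery rate (FDR) below 0.1 over all 456 miRNAs. A count of 0 allows up to 0.632 to 0.787 CPM in the grass-fed and up to 2.92 to 5.32 CPM in the grain-fed libraries, which covers counting error only. Of the hepatocyte miRNAs bta-miR-122, bta-miR-192, bta-miR-194, bta-miR-148a and bta-miR-885, the first 2 were called higher in the grass-fed group, with log2 fold changes of 1.12 (FDR = 0.00417) and 0.65 (FDR = 0.0285). The other 3 were not called, and bta-miR-194 lay on the other side at -0.43, while bta-miR-148a was at 0.46 and bta-miR-885 at 0.41. The summed level of the list, to which bta-miR-122 gave the most by the group means, was 516658 to 820756 CPM in the grass-fed and 328230 to 389886 CPM in the grain-fed libraries. In both groups the liver marker was among the most abundant miRNAs. The stellate and mesenchymal list had 3 of 5 members called higher, and the biliary list had 1 called higher and 1 lower of 5. Of all 456 tested miRNAs, 9.43% were called higher and 9.65% lower. The summed stellate and mesenchymal level was 79753 to 115814 against 73761 to 86462 CPM. Most of it came from bta-miR-143, at means of 91186 and 72423 CPM, which was not called (FDR = 0.271, edgeR). bta-miR-214 was not called either (log2 fold change 0.03, FDR = 0.947). edgeR called 0 members of the leukocyte (5), erythroid (3), endothelial (2) and skeletal muscle (3 tested) lists. At an unadjusted edgeR p below 0.05, met by 115 of all 456 tested miRNAs, these lists had 3 leukocyte miRNAs lower and 1 muscle miRNA higher. DESeq2 called 1 leukocyte miRNA lower, and it called 14.3% lower of the 350 miRNAs to which it gave an adjusted p. The summed levels of these lists overlapped between diets, as in the leukocyte list with 743 to 993 against 943 to 1132 CPM. The part of cell composition in the values of the miR-30 members was not tested, and in whole liver fewer cells of a type cannot be told apart from less of a miRNA per cell.

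bta-miR-30a-5p was by far the most abundant member. Its level was 60578, 69001 and 59665 CPM in the grass-fed steers and 54720, 53936 and 57927 CPM in the grain-fed steers. By the number of counts it was the 5th or 6th miRNA of every library. The other members fell into a wide range, with bta-miR-30d, bta-miR-30e-5p and bta-miR-30c next in level and bta-miR-30b-3p at a few CPM. miRNAs are near equal in length, so their counts were compared without scaling for length, but miRNAs can be captured unequally by a library protocol, and this was not tested.

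In the grass-fed group the members kept one order in all 3 libraries, with no overlap of ranges between neighbours. From high to low it ran bta-miR-30a-5p, bta-miR-30d, bta-miR-30e-5p, bta-miR-30c, bta-miR-30f, bta-miR-30b-5p and bta-miR-30b-3p. In the grain-fed group 2 pairs of neighbours changed places. bta-miR-30e-5p stood 1.26 times above bta-miR-30d by the means, in 2 of 3 libraries, and the ranges of these members overlapped, so their order was not resolved. bta-miR-30b-5p stood 2.14 times above bta-miR-30f in all 3 grain-fed libraries, whereas bta-miR-30f stood 1.22 times above bta-miR-30b-5p in all 3 grass-fed libraries. The plot of levels by library shows these exchanges.

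**Figure D1:**
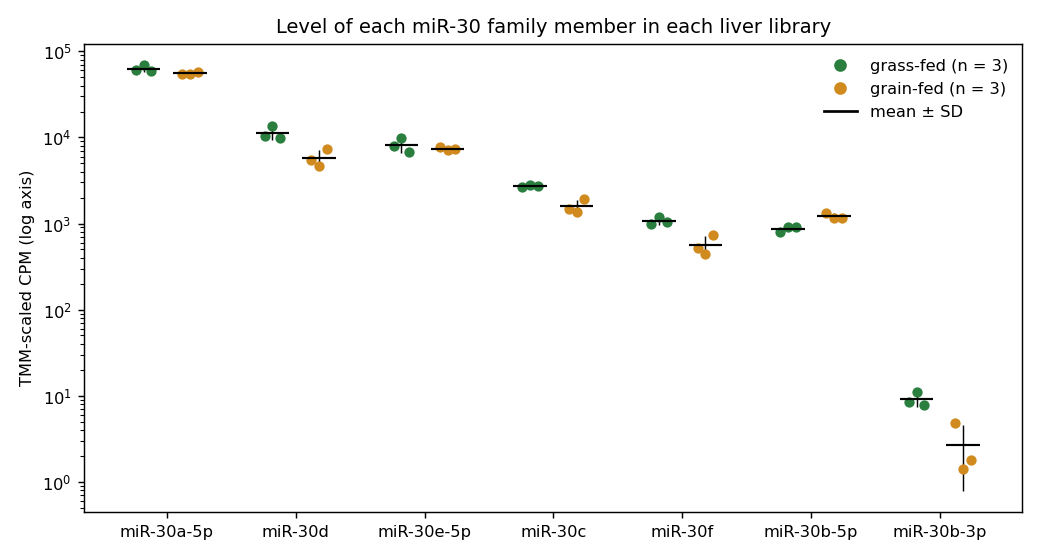
TMM-scaled CPM of each miR-30 member (log axis) in 3 grass-fed and 3 grain-fed liver libraries, with 1 point per library and a bar for the mean ± SD. bta-miR-30a-5p has its lowest point at 53936 CPM and bta-miR-30b-3p between 1.42 and 11.1 CPM, while bta-miR-30b-5p has its higher points in the grain-fed group and bta-miR-30c, bta-miR-30d and bta-miR-30f in the grass-fed group.

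Between diets, bta-miR-30c, bta-miR-30d and bta-miR-30f were higher in the grass-fed group. The scarce bta-miR-30b-3p was also called higher, but it had entered the test only through its grass-fed counts. edgeR called 0 members lower, but bta-miR-30b-5p had an unadjusted p below 0.05 and was called lower by DESeq2. The calls are 4 of 7 members, or 3 of the 6 members other than bta-miR-30b-3p, while 19.1% of all 456 tested miRNAs were called in either direction, 9.43% higher and 9.65% lower. The median log2 fold change was 0.79 over the 7 members, with bta-miR-30b-3p at 1.58 included, and 0.13 over all tested miRNAs. Without bta-miR-30b-3p the median of the members falls between the 0.18 of bta-miR-30a-5p and the 0.79 of bta-miR-30c. The CPM ranges of the diet groups did not overlap in 6 of 7 members, all but bta-miR-30e-5p, and in 32.9% of all tested miRNAs. These 6 include bta-miR-30b-3p, which had 2 grain-fed libraries at or under the floor of 3 counts. With 7 members chosen by name, these counts describe the family and are no test of it.

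bta-miR-30d had the largest difference among the abundant members. It stood at 10304, 13460 and 9922 CPM in the grass-fed steers and at 5437, 4659 and 7387 CPM in the grain-fed steers. Every grass-fed library was above every grain-fed library. The means were 11229 ± 1942 and 5828 ± 1405 CPM (SD, n = 3), a 1.93-fold difference, and the log2 fold change was 0.95 (SE 0.22, 95% interval 0.46 to 1.43, FDR = 0.0125, edgeR). It was called with each of the 6 libraries left out in turn, at log2 fold changes of 0.72 to 1.11.

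bta-miR-30c, the member tied to lipoprotein assembly, had the most even levels in the grass-fed group. Its level was 2662, 2805 and 2747 CPM in the grass-fed steers against 1466, 1356 and 1928 CPM in the grain-fed steers. The groups did not overlap, and the spread within the grain-fed group (19.2% of its mean) was wider than in the grass-fed group (2.62%). The means were 2738 ± 71.7 and 1584 ± 304 CPM (SD, n = 3), a 1.73-fold difference with a log2 fold change of 0.79 (SE 0.20, 95% interval 0.35 to 1.24, FDR = 0.0203, edgeR). Without grain-fed replicate 1 (FDR = 0.115) or grain-fed replicate 2 (FDR = 0.154) it was no longer called.

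bta-miR-30f followed the same order of libraries as bta-miR-30c at a lower level. It was at 991, 1187 and 1036 CPM in the grass-fed steers and at 520, 439 and 742 CPM in the grain-fed steers. The groups were separate, with grain-fed replicate 3 the highest of its group, as it was for bta-miR-30c and bta-miR-30d. The means of 1071 ± 103 and 567 ± 157 CPM (SD, n = 3) differed 1.89-fold, with a log2 fold change of 0.92 (SE 0.24, 95% interval 0.41 to 1.44, FDR = 0.0192, edgeR). This call was also lost without grain-fed replicate 1 (FDR = 0.11) or grain-fed replicate 2 (FDR = 0.146).

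bta-miR-30b-3p, the minor arm of the miR-30b hairpin, had very few reads. Its counts were 40, 47 and 30 in the grass-fed steers and 5, 1 and 1 in the grain-fed steers. These counts correspond to 8.42, 11.1 and 7.87 CPM against 4.87, 1.42 and 1.77 CPM, so the groups did not overlap, but 2 grain-fed libraries lay at or under the floor of 3 counts. Pooled over the libraries of a diet, the level was 3.00 times higher in the grass-fed group, with a 95% exact interval of 1.41 to 7.62 that covers counting error only. The fitted log2 fold change was 1.58 (SE 0.55, 95% interval 0.39 to 2.76, FDR = 0.0734, edgeR), and it ran from 1.19 to 2.45 with 1 library left out, the latter without grain-fed replicate 1. Because this member passed the filter through the group in which it was higher, its call is given as a description. The call was lost without grass-fed replicate 1 (FDR = 0.111) or grass-fed replicate 2 (FDR = 0.122). It was also lost without grain-fed replicate 2 (FDR = 0.301) or grain-fed replicate 3 (FDR = 0.197), and in DESeq2 (FDR = 0.163). DESeq2 was fitted to the same 456 miRNAs but gave an adjusted p to 350 of them. Of these 350 it called 26.0%, 11.7% higher and 14.3% lower.

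bta-miR-30b-5p, the major arm of that hairpin, lay on the other side. Its level was 805, 908 and 911 CPM in the grass-fed steers and 1330, 1160 and 1155 CPM in the grain-fed steers. Every grain-fed library was above every grass-fed library, which by CPM was true of no other member. As a percent of all miRNA counts it was also true of bta-miR-30a-5p, at means of 5.46% in the grass-fed and 6.44% in the grain-fed group. The same held for bta-miR-30e-5p, at 0.700% and 0.852%. The means were 875 ± 60.1 and 1215 ± 100 CPM (SD, n = 3), 1.39-fold higher in the grain-fed group. The log2 fold change of -0.48 (SE 0.19, 95% interval -0.90 to -0.05) did not pass the threshold (FDR = 0.146, unadjusted p = 0.0313, edgeR). It passed without grass-fed replicate 3 (log2 fold change -0.59, FDR = 0.0942) and in DESeq2 (log2 fold change -0.55, FDR = 0.0355).

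The most abundant member and its close relative bta-miR-30e-5p gave no call. bta-miR-30a-5p had means of 63081 ± 5147 and 55528 ± 2114 CPM (SD, n = 3) in grass-fed and grain-fed groups, with a log2 fold change of 0.18 (95% interval -0.16 to 0.53, FDR = 0.515, edgeR). Its ranges did not overlap, but the gap between them was small beside the levels. bta-miR-30e-5p was at 8045, 9781 and 6739 CPM in the grass-fed steers and at 7672, 7117 and 7268 CPM in the grain-fed steers. The grain-fed values lay inside the grass-fed range, and the log2 fold change was 0.16 (95% interval -0.27 to 0.58, FDR = 0.707, edgeR). These intervals leave room for changes in either direction. The family as a whole summed to 83394, 97152 and 81029 CPM in the grass-fed steers and 71150, 68669 and 76408 CPM in the grain-fed steers, a log2 difference of means of 0.27 that was not tested.

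The calls depended on how libraries were scaled. With total counts alone, the median over all tested miRNAs moved from 0.13 to -0.29 on the log2 scale, and only 1 member was called, bta-miR-30b-5p, which was then lower in the grass-fed group (log2 fold change -0.88, FDR = 0.0156, edgeR). Under that scaling 16.2% of all tested miRNAs were called, 1.97% higher and 14.3% lower, and the log2 fold changes of bta-miR-30c, bta-miR-30d and bta-miR-30f were 0.38 (FDR = 0.332), 0.50 (FDR = 0.161) and 0.49 (FDR = 0.256). With bta-miR-122 left out of the total counts, and also without TMM factors, edgeR called bta-miR-30b-5p lower (log2 fold change -0.68, FDR = 0.0480). It called bta-miR-30c (FDR = 0.0998), bta-miR-30d (FDR = 0.0314) and bta-miR-30f (FDR = 0.0748) higher. Under that scaling 17.8% of tested miRNAs were called, 5.48% higher and 12.3% lower. Upper-quartile factors called 27.2% of tested miRNAs, 18.0% higher and 9.21% lower, and there bta-miR-30a-5p was also called higher (log2 fold change 0.37, FDR = 0.0444, edgeR).

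A change of scaling shifts the log2 fold changes of all miRNAs by nearly the same amount. Measured from the median of all tested miRNAs, the members therefore stood at nearly fixed places under all 5 scalings. These distances describe the members and are no test of how stable their differences are. bta-miR-30d lay 0.79 to 0.82 above that median on the log2 scale, bta-miR-30f 0.78 to 0.81 and bta-miR-30c 0.66 to 0.68. bta-miR-30a-5p lay 0.05 to 0.06 above it and bta-miR-30e-5p 0.00 to 0.02. bta-miR-30b-5p lay at -0.61 to -0.59. Scaling thus moved the members together and left the distances among them, as the plot of fold changes by scaling shows.

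**Figure D2:**
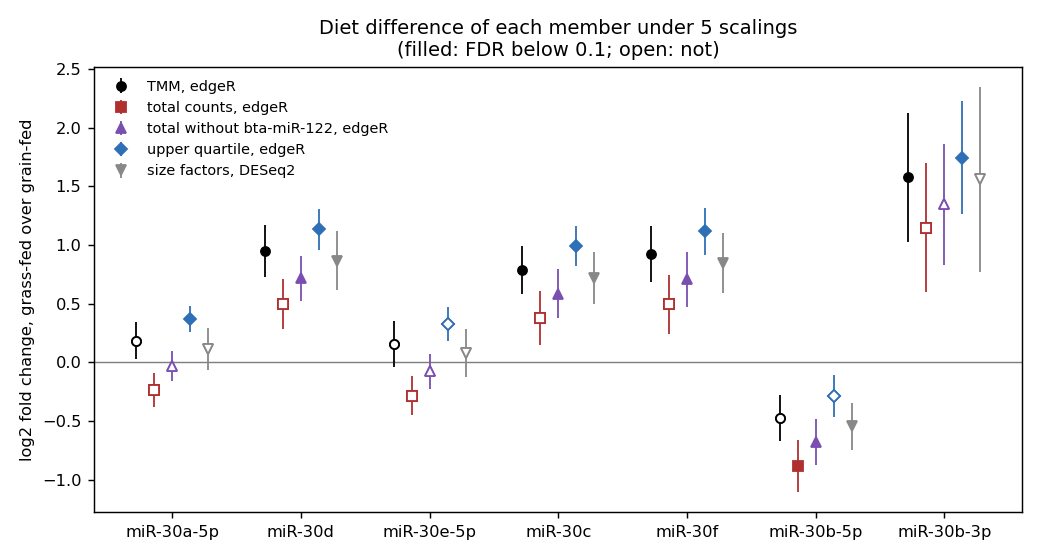
log2 fold change of each member, grass-fed over grain-fed, under 5 scalings, with bars for the standard error and filled symbols for an FDR below 0.1. bta-miR-30a-5p and bta-miR-30e-5p change sign between scalings, bta-miR-30c, bta-miR-30d, bta-miR-30f and bta-miR-30b-3p stay above 0, and bta-miR-30b-5p stays below 0, from -0.88 with total counts alone.

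The make-up of the family within a library does not depend on scaling. bta-miR-30a-5p made up 72.4% ± 1.32 of the family counts in the grass-fed and 77.1% ± 1.38 in the grain-fed group (SD, n = 3). The share of bta-miR-30d was 12.8% ± 0.899 against 8.03% ± 1.48, that of bta-miR-30c 3.16% ± 0.254 against 2.19% ± 0.295 and that of bta-miR-30f 1.23% ± 0.0459 against 0.780% ± 0.171. bta-miR-30b-5p held 1.01% ± 0.102 in the grass-fed and 1.69% ± 0.179 in the grain-fed group. The shares of these 5 members did not overlap between diets. Shares of a common total are tied, since a rise in the share of a member lowers those of others, so these are not 5 separate differences. By other measures, 32.9% of the CPM ranges of all tested miRNAs and 49.6% of the ratios of abundant pairs within libraries were separate. bta-miR-30e-5p, at 9.34% ± 0.913 against 10.2% ± 0.648, overlapped. The family took 7.53% ± 0.715 of all miRNA counts in the grass-fed and 8.36% ± 0.828 in the grain-fed group, and these ranges overlapped.

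**Figure D3:**
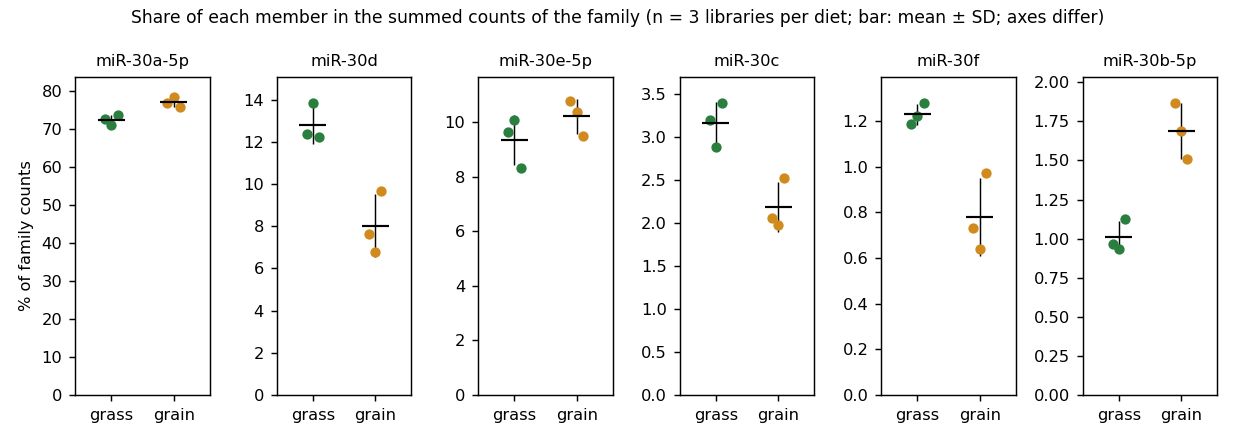
Percent of the summed family counts held by each of the 6 members other than bta-miR-30b-3p, with 1 point per library, a bar for the mean ± SD, and axes that start at 0 and differ between panels. Points of grass-fed and grain-fed libraries are separate for all but bta-miR-30e-5p, with bta-miR-30d at a mean of 8.03% in the grain-fed and 12.8% in the grass-fed group.

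Ratios of members within a library gave the difference between members directly. Of the 8 ratios chosen, 7 did not overlap between diets, each with a two-sided exact permutation p = 0.1, the smallest that 3 against 3 libraries can give, and 0.114 after Benjamini-Hochberg adjustment over the 8. The 7 include the ratio of the miR-30b arms, in which bta-miR-30b-3p had 1 read in 2 grain-fed libraries. As that member was tested only through its grass-fed counts, the p of this ratio is given as a description. Among all 5253 pairs of miRNAs with at least 100 counts in every library, 49.6% did not overlap. The median size of the difference over these pairs was 0.55 on the log2 scale. bta-miR-30b-3p was too scarce to enter these pairs, so the 49.6% does not cover the arm ratio. A separate ratio was thus common in these libraries.

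The neighbours miR-30b and miR-30d moved apart. The log2 ratio of bta-miR-30b-5p to bta-miR-30d was -3.68, -3.89 and -3.44 in the grass-fed steers and -2.03, -2.01 and -2.68 in the grain-fed steers. All grain-fed values were above all grass-fed values, and the means of -3.67 ± 0.22 and -2.24 ± 0.38 (SD, n = 3, exact permutation p = 0.1) differed by -1.43. The other neighbours, miR-30c and miR-30e, differed by -0.67, with a log2 ratio of bta-miR-30e-5p to bta-miR-30c of 1.56 ± 0.26 against 2.23 ± 0.27. The ratio of bta-miR-30b-5p to bta-miR-30c was -1.65 ± 0.07 against -0.37 ± 0.32.

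The proportion of the miR-30b arms rests on the same few 3p reads. In the grass-fed group, the 3p arm gave 1.03% (95% exact Clopper-Pearson interval 0.740 to 1.41), 1.21% (0.887 to 1.60) and 0.857% (0.579 to 1.22) of the reads of both arms in replicates 1, 2 and 3. In the grain-fed group it gave 0.365% (0.119 to 0.849), 0.122% (0.00309 to 0.678) and 0.153% (0.00388 to 0.852). The point values of the groups were separate, although the interval of each grain-fed library reached into that of at least 1 grass-fed library. The log2 ratio of 5p to 3p was 6.58 ± 0.24 in the grass-fed and 8.60 ± 0.58 in the grain-fed group, where the size of the difference is set by 2 libraries with 1 read of the 3p arm, and in all 6 libraries the 5p arm made up nearly all reads of the hairpin.

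Members outside the miR-30b hairpin fell into ratios that differed and ratios that did not. The log2 ratios of bta-miR-30a-5p to bta-miR-30d (2.50 ± 0.12 against 3.28 ± 0.28) and to bta-miR-30c (4.52 ± 0.09 against 5.15 ± 0.21) were lower in every grass-fed library. bta-miR-30d to bta-miR-30e-5p was 0.46 ± 0.10 against -0.36 ± 0.34. bta-miR-30a-5p to bta-miR-30e-5p was 2.96 ± 0.17 against 2.92 ± 0.08 and overlapped (exact permutation p = 0.9, n = 3). These ratios appear in the plot of ratios by library.

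**Figure D4:**
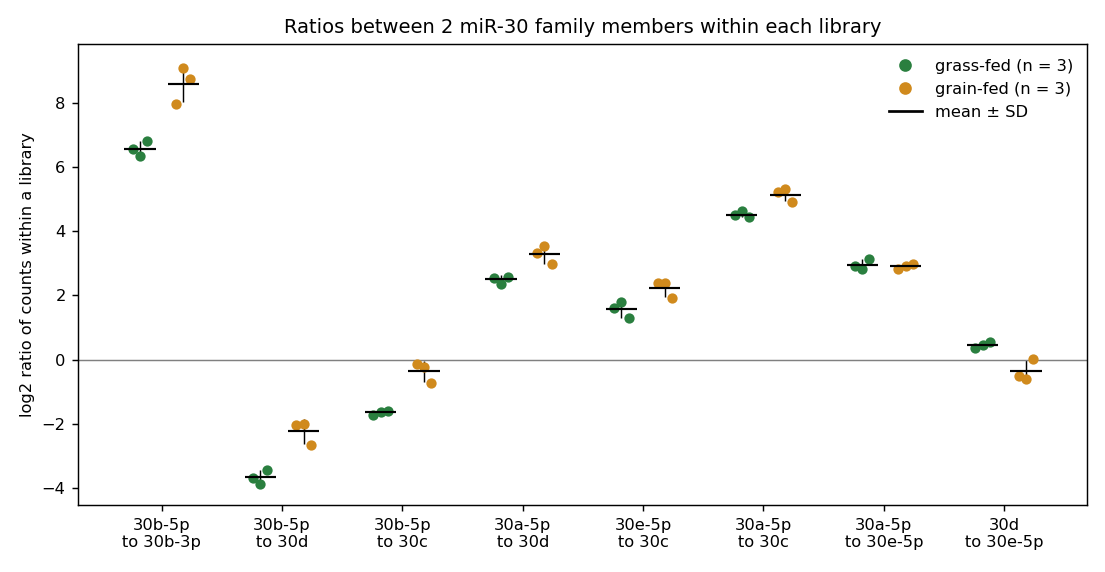
log2 ratio of the counts of 2 members within each library for the 8 chosen ratios, with 1 point per grass-fed or grain-fed library and a bar for the mean ± SD. The diet groups are separate in 7 ratios, among them bta-miR-30b-5p to bta-miR-30d (-3.67 against -2.24) and the miR-30b arms, which rest on 1 read of the 3p arm in 2 grain-fed libraries, and overlap for bta-miR-30a-5p to bta-miR-30e-5p (2.96 against 2.92).

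All 15 ratios among the 6 members other than bta-miR-30b-3p were computed after the first values had been seen. They are grouped here by the fold changes given above, so the counts restate those values within libraries and are to be read beside the 49.6% of separate ratios over all pairs. Among bta-miR-30c, bta-miR-30d and bta-miR-30f, 0 of 3 ratios were separate and the differences between diets were 0.01 to 0.15 on the log2 scale. bta-miR-30a-5p or bta-miR-30e-5p against one of these members was separate in 6 of 6, by 0.62 to 0.82. bta-miR-30b-5p against any of the other 5 was separate in 5 of 5, by 0.61 to 1.43, and its exchange of places with bta-miR-30f appears as a log2 ratio of -0.29 ± 0.10 in the grass-fed and 1.13 ± 0.43 in the grain-fed group.

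The same differences were fitted again with bta-miR-30d counts in place of the library size and without TMM factors, giving each miRNA relative to bta-miR-30d. This reference was also chosen after seeing values, and it had the largest difference among the abundant members. Members with smaller differences therefore had to come out lower. The FDRs of this fit restate the ratios above and give no further support. Relative to it, bta-miR-30b-5p was lower in the grass-fed group by a log2 fold change of -1.45 (SE 0.29, FDR = 0.00225, edgeR), bta-miR-30a-5p by -0.79 (SE 0.24, FDR = 0.0252) and bta-miR-30e-5p by -0.84 (SE 0.27, FDR = 0.0301). Of all 455 other miRNAs tested this way 39.3% were called, 38.9% lower and 0.440% higher. bta-miR-30c, at -0.14 (95% interval -0.70 to 0.42, FDR = 0.714), and bta-miR-30f, at -0.01 (95% interval -0.56 to 0.55, FDR = 0.985), gave no call, and the intervals do not show that they moved alike. With the summed family counts as library size, again without TMM factors, bta-miR-30b-5p was lower (log2 fold change -0.75, FDR = 0.0217, edgeR). bta-miR-30c, bta-miR-30d and bta-miR-30f were higher (0.53, 0.67 and 0.66, FDR = 0.0797, 0.0316 and 0.0622). In that fit 18.2% of tested miRNAs were called, 13.6% lower and 4.61% higher.

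Likeness of pattern was measured as Pearson's r of log2 CPM over the 6 libraries, among 127 other miRNAs with a mean of at least 100 CPM. These points share their scaling and the split by diet, age and depth, so r is given as a description without p. bta-miR-125b was most like both bta-miR-30c (r = 0.995) and bta-miR-30f (r = 0.980), with means of 2892 ± 89.8 CPM in the grass-fed and 1288 ± 349 CPM in the grain-fed group (SD, n = 3). bta-miR-125a was most like bta-miR-30d (r = 0.973). bta-miR-2484 was most like bta-miR-30b-5p (r = 0.940), at 241 ± 28.8 against 4844 ± 111 CPM, a far wider difference between diets than that of the member.

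The closest matches of the remaining members were bta-miR-423-3p for bta-miR-30a-5p (r = 0.980), bta-miR-7 for bta-miR-30e-5p (r = 0.902) and bta-miR-1 for bta-miR-30b-3p (r = 0.951, on counts as low as 1). The family total was most like bta-miR-199a-3p (r = 0.981), followed by bta-miR-199c (r = 0.981) and bta-miR-92a (r = 0.979), and the first 2 had nearly the same counts and cannot be told apart here. Within the family, r was 0.991 between bta-miR-30c and bta-miR-30f, 0.990 between bta-miR-30d and bta-miR-30f and 0.973 between bta-miR-30c and bta-miR-30d. bta-miR-30b-5p ran against bta-miR-30c at r = -0.894.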

How the data were processed

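Size-selected small RNA from 6 livers was sequenced by the authors, who trimmed and length-selected reads, mapped them to the cattle assembly ARS-UCD1.2 and counted known miRNAs of miRBase with miRDeep2. The version and settings of miRDeep2 are not stated in the paper or labels. The submitters' processing notes also name FastQC 0.11.5 and Trimmomatic 0.36. The deposited values are raw counts per pair of mature miRNA and precursor. The deposited CPM, scaled by the authors to the library total, entered no test.

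The largest count over precursors was taken for each mature miRNA. miRNAs whose count exceeded 2 in 2 or more libraries were tested with edgeR 4.0.16 (quasi-likelihood, newer form of the fit, TMM) in R 4.3.3, with Benjamini-Hochberg adjustment over all 456. Groups came from the sample labels, with 1 library per animal. Standard errors are the absolute log2 fold change divided by the root of F. Ratios had 0.5 added to each count. Members, lists, ratios and tests were chosen with earlier results of these data known, and the rule for other miRNAs named in the text took hepatocyte miRNAs, miRNAs within 10000 bases of a member and the most alike patterns. Its clause on shared seeds was not applied. Gene neighbours come from RefSeq on ARS-UCD2.0, another build than that of the files, and no coordinates were used.

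Counts were simulated for the 456 miRNAs at these library sizes, in 10 draws with 200 miRNAs shifted by a log2 value of 2. Of the shifted miRNAs 81.4% were called, and 4.85% of calls were unchanged miRNAs. The shifts had random signs and were larger than the fitted log2 fold changes of the members. These rates therefore do not cover differences of the members' size, nor calls that depend on the scaling. Replicates differed by more than sampling noise, and no library was a duplicate. Alternatives were other scalings, DESeq2 1.42.0, other filters and ways of summing precursors, the older form of the edgeR fit, FDR 0.05, a block on replicate number and leaving out single libraries.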

Additional observations from a re-analysis of the deposited data

How the results depend on the processing

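bta-miR-30d was called in 15 of 16 alternatives (FDR 0.00245 to 0.161), bta-miR-30c and bta-miR-30f in 13 each, bta-miR-30b-3p in 9, bta-miR-30b-5p in 7, bta-miR-30a-5p in 1 and bta-miR-30e-5p in 0. With total counts alone, 1 member was called in place of 4, the family total moved from 0.27 to -0.15 on the log2 scale, and bta-miR-30a-5p (-0.24) and bta-miR-30e-5p (-0.28) turned lower in the grass-fed group. Without bta-miR-122 in the library size, and without TMM factors, these were -0.0314 and -0.0772 with a family total of 0.0550. Upper-quartile factors gave a family total of 0.46. These settings rescale whole libraries, so all miRNAs move together. For the same reason bta-miR-30a-5p (-0.0899) and bta-miR-30e-5p (-0.13) reversed relative to the family counts, and bta-miR-30a-5p (-0.79), bta-miR-30c (-0.14), bta-miR-30e-5p (-0.84) and bta-miR-30f (-0.00778) relative to bta-miR-30d, where 179 miRNAs were called in place of 87. The share of calls that were lower was 50.6% with TMM, 87.8% with total counts, 69.1% without bta-miR-122 and 33.9% with upper-quartile factors. Over all 15 ratios of the 6 members, 11 did not overlap, against 7 of the 8 chosen, which include the miR-30b arms.

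Leaving out 1 library gave 1 to 5 members called (2 without grain-fed replicate 1, 1 without grain-fed replicate 2), 49 to 86 miRNAs called in all (49 without grain-fed replicate 2) and a family total of 0.16 (without grain-fed replicate 2) to 0.28. The cause of these losses was not tested. With the replicate number as a block, 4 members and 82 miRNAs were called, but the labels do not say that the numbers pair animals. Deviations of same-numbered libraries correlated at -0.05, -0.20 and -0.01, and those of libraries with unlike numbers at -0.21 to 0.23. These values show no sign of pairing but cannot settle whether there was any. At FDR 0.05, 3 members were called among 70 miRNAs in all, 30 higher and 40 lower. The shallow grain-fed libraries limit bta-miR-30b-3p, whose fold rests on 7 grain-fed reads.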
